A study of Homo sapiens with 9 samples.

Results

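Tubulin isotype genes encode the alpha- and beta-tubulin proteins whose paired subunits polymerize into microtubules. The 10 genes described here (4 alpha, TUBA1A, TUBA1B, TUBA1C and TUBA4A; 6 beta, TUBB, TUBB2A, TUBB2B, TUBB3, TUBB4B and TUBB6) were taken by gene symbol from 24204 symbols, and each of the 10 was found as 1 entry. Their transcripts were measured by RNA-seq in HepG2, a human liver cancer cell line. The cells were infected with lentivirus carrying a control short hairpin RNA (Control shRNA, called shCtrl), a first hairpin against TRIB3 (TRIB3 sh1, called shTRIB3-1) or a second one (TRIB3 sh2, called shTRIB3-2), with 3 libraries in each group. Infection lasted 48 h and was followed by puromycin selection for another 48 h, so that cells of every group carried the vector and had been exposed to the drug. TRIB3 is a pseudokinase made in cells short of amino acids, and the study asked whether it takes part in the DNA damage response.

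As a model these groups have limits. Per the labels, growth was in high-glucose medium with serum. The study's methods, written for its RNA-seq as a whole, describe cells deprived of glutamine. Its discussion reports altered repair gene expression after TRIB3 depletion without glutamine deprivation. No source states the medium at harvest of these libraries outright, so it remains uncertain. Nothing in the sources states that the 3 libraries of a group came from separate cultures, so p-values measure the spread between these libraries, which may be technical. Both hairpins were compared with the same 3 shCtrl libraries.

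Vertebrate alpha- and beta-tubulins come from several genes with nearly identical coding sequences, and the isotypes differ mostly in a short acidic tail at the end of the protein that enzymes add glutamate or glycine to. TUBB, TUBA1B, TUBA1C and TUBB4B are known as broadly used isotypes of dividing cells, while TUBA1A, TUBB2A, TUBB2B and TUBB3 are known for high levels in neurons and for inherited brain malformations. Cells also adjust tubulin transcripts to the amount of free tubulin: the first residues of a nascent tubulin chain are recognized on the ribosome by TTC5, which brings a deadenylase complex to the mRNA.

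The sequences show how closely the genes are related and which parts set them apart. Each gene was assigned its MANE Select transcript, the agreed reference transcript, in GENCODE release 44 on GRCh38. The last 20 codons, which encode the acidic tail, are shown for TUBB2A and TUBB2B, the closest pair, with glutamate codons (GAA and GAG) in capitals.
TUBB2A: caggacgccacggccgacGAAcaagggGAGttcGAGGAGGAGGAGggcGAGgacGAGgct
TUBB2B: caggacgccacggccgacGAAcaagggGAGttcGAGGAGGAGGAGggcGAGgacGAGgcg
They lie at chr6:3153866-3153925 for TUBB2A and chr6:3224754-3224813 for TUBB2B, both on the minus strand and both coding. The 60 tail bases of this pair differed only in the last base. Over the whole coding sequence the TUBA1A and TUBA1B pair was 97.2% identical and the TUBB2A and TUBB2B pair 98.1%. Among the 6 alpha pairs identity ran from 84.4% to 97.2%, among the 15 beta pairs from 81.0% to 98.1%, and between alpha and beta genes from 54.9% to 57.6%.

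The tails of 3 beta genes with other endings are shown because their transcripts behaved differently from each other.
TUBB: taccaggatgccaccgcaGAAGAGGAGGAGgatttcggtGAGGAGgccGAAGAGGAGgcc
TUBB3: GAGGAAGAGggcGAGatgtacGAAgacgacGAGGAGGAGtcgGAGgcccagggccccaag
TUBB6: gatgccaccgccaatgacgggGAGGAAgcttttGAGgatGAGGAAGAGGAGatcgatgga
These lie at chr6:30724335-30724394 for TUBB, chr16:89935742-89935801 for TUBB3 and chr18:12326068-12326127 for TUBB6, on the plus strand. Of the 20 last codons, 6 in TUBA1C and 10 in TUBB4B encode glutamate, the fewest and the most among the 10 genes. Glutamate codons of TUBB3 stop before the final codons, whereas those of TUBB run almost to the end.

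At the other end of the coding sequence, the first 12 bases encode the residues that the TTC5 pathway reads. In bases there are 6 versions, but the encoded residues are the same within the alpha genes and within the beta genes. With the start codon in capitals, the 6 versions are as follows.
TUBA1A, TUBA1B and TUBA1C: ATGcgtgagtgc
TUBA4A: ATGcgtgaatgc
TUBB and TUBB4B: ATGagggaaatc
TUBB3 and TUBB6: ATGagggagatc
TUBB2A: ATGcgcgagatc
TUBB2B: ATGcgtgagatc
TUBA1A and TUBA1B thus share this start, although their transcript levels changed in opposite directions, as described next.

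Values are FPKM, fragments scaled for gene length and for a library total, so levels compared between genes rest on those lengths. The library total was solved from the values, and the fragments recovered for genes added up to 99.9% of it. The length behind FPKM exceeded the reference transcript for several genes (TUBB6 3128 against 1879 bases, TUBA1A 2232 against 1672, TUBA4A 2695 against 2049). For others, such as TUBA1B (1627), it was equal. Orders, shares and ratios between genes depend on this. TRIB3 itself, the targeted gene, was at 66.8 ± 1.08 FPKM in shCtrl, 33.6 ± 0.760 with shTRIB3-1 and 20.5 ± 0.171 with shTRIB3-2 (SD, n = 3 each), so its transcript was lower in all 6 knockdown libraries. All 10 tubulin genes passed the filter on low values (FPKM of 1 or more in 3 or more libraries), as did 11265 genes in all. Depth, which is this solved library total, ran from 34206725 to 36311028 fragments per library. Correlations of log2 values between replicates ran from 0.996 to 0.997. In chi-square per degree of freedom, shCtrl replicate 1 lay at 7.36 and 7.54 from the other replicates, which were 3.13 from each other. For shTRIB3-2 replicate 2 these values were 6.03, 6.42 and 3.22. The 9 hepatocyte markers examined were expressed (ALB at 4929 to 6715 FPKM). Of the neuronal markers, RBFOX3, SNAP25 and NEFL had at most 2 fragments in any library, and the summed level of the 5 neuronal markers was 0.859 to 1.04 FPKM in shCtrl, 1.32 to 1.61 with shTRIB3-1 and 1.03 to 1.24 with shTRIB3-2. Defining markers of the other cell types examined were also near 0: PTPRC (leukocytes) had at most 1 fragment, and the summed fibroblast and endothelial markers stayed at or below 0.190 and 0.314 FPKM. In bulk samples, fewer cells of a type and less RNA per cell cannot be told apart.

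With the first hairpin, 7 of the 10 tubulin genes rose, 2 fell (TUBA1B and TUBB4B, neither of which passed with median centring) and 1 did not pass the test (limma on log2(FPKM + 0.1), two-sided, Benjamini-Hochberg adjusted p under 0.05 over all tested genes). Of all tested genes, 74.4% passed in this comparison, 32.9% higher and 41.5% lower, so passing the test was common. A log2 fold change above 1 together with that adjusted p was met by 6 tubulin genes, all higher, against 5.39% of tested genes on the higher and 6.1% on the lower side. The median log2 fold change was 1.03 over the 10 genes and -0.06 over all tested genes.

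With the second hairpin, 6 tubulin genes rose, 3 fell and 1 did not pass, where 75.9% of tested genes passed (35.4% higher, 40.5% lower). Past a log2 fold change of 1 were 4 tubulin genes, all higher, against 6.06% of tested genes on the higher and 6.27% on the lower side. The median was 0.65 over the 10 genes and -0.03 over all tested genes. The 6 genes that rose with this hairpin were TUBA1A, TUBB2A, TUBB2B, TUBB6, TUBB3 and TUBA4A, and with the first hairpin TUBA1C rose besides them; the control libraries were shared.

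**Figure D1:**
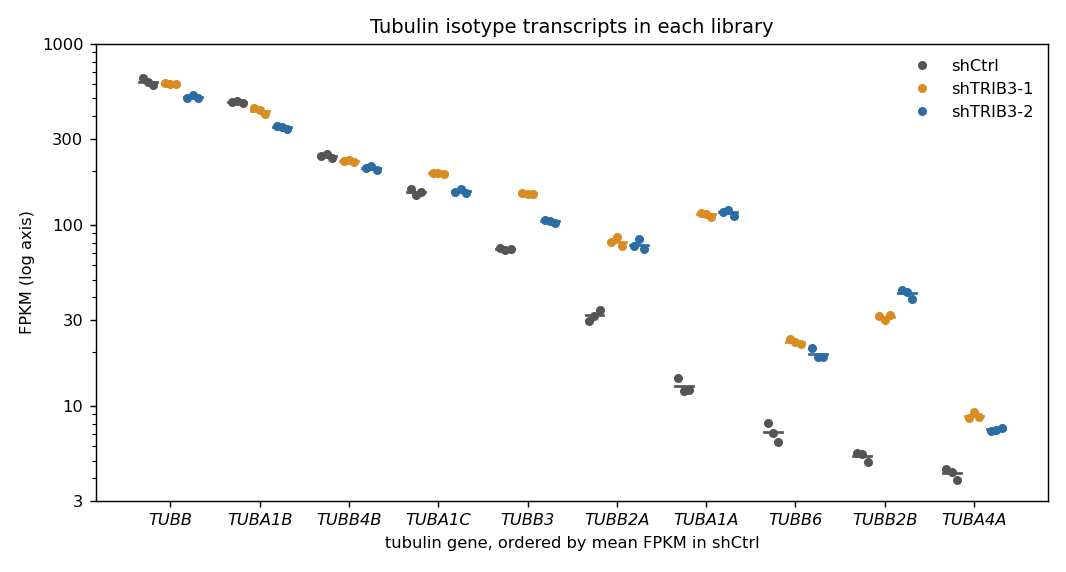
FPKM (log axis) of the 10 tubulin genes in each of the 9 libraries; points are libraries, bars are group means, and genes are ordered by their mean in shCtrl. The 6 genes on the right, from TUBB3 at 73.8 FPKM to TUBA4A at 4.26 FPKM in shCtrl, lie higher in every knockdown library, whereas the 4 on the left run from 147 to 650 FPKM with small differences between groups.

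TUBA1A, an alpha isotype abundant in developing neurons, changed the most of the 10. Its FPKM was 14.2, 12.1 and 12.2 in the shCtrl libraries, 117, 115 and 111 with shTRIB3-1, and 118, 122 and 112 with shTRIB3-2. Every knockdown library was far above every control library, and the groups of the 2 hairpins overlapped. The means were 12.8 ± 1.19, 114 ± 3.33 and 117 ± 4.96 FPKM, that is 8.91-fold and 9.14-fold the control mean. The log2 fold change was 3.15 (SE 0.0564, limma adjusted p = 9.58e-13) with the first hairpin and 3.19 (SE 0.0564, adjusted p = 5.39e-13) with the second. Among 11265 tested genes these were the 63rd and the 27th highest log2 fold changes. The fragments behind them numbered 977 to 1135 per control library and 8597 to 9464 per knockdown library, so counting limits neither value. The direct comparison of the hairpins gave a difference of 0.04 on the log2 scale with a 95% interval from -0.09 to 0.16 (adjusted p = 0.634). The gene lies at chr12:49184686-49189080 on the minus strand of GRCh38.

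TUBA1B, its neighbour at chr12:49127782-49131397 and the main alpha isotype of most dividing cells, moved the other way. Its FPKM was 477, 482 and 472 in shCtrl, 441, 432 and 413 with shTRIB3-1, and 353, 346 and 340.1 with shTRIB3-2. No 2 groups overlapped, and the second hairpin's libraries were the lowest. On the log2 scale it changed by -0.15 (SE 0.0322, limma adjusted p = 8.98e-04) with shTRIB3-1 and -0.46 (SE 0.0322, adjusted p = 5.75e-08) with shTRIB3-2. With each library centred on its median the first of these was -0.07 (adjusted p = 0.134), while the second kept its direction and passed under every scaling tried. TUBA1B was 37.4 times TUBA1A in shCtrl (33.6 to 39.9 over libraries), 3.75 times with shTRIB3-1 (3.73 to 3.76) and 2.95 times with shTRIB3-2 (2.84 to 3.04). The control ratios lay far above those of all 6 knockdown libraries.

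TUBA1C, the remaining gene of the chromosome 12 cluster (chr12:49188736-49274600, plus strand), differed between the hairpins. FPKM was 157, 147 and 152 in shCtrl, 194, 194 and 193 with shTRIB3-1, and 153, 158 and 151 with shTRIB3-2. Libraries of shTRIB3-1 were above all others, and those of shCtrl and shTRIB3-2 overlapped. Its log2 fold change was 0.35 (SE 0.0318, limma adjusted p = 8.13e-07) with shTRIB3-1 and 0.02 with a 95% interval from -0.05 to 0.09 with shTRIB3-2 (adjusted p = 0.638), and this last value changed sign when FPKM was rescaled to TPM (-0.01). The hairpins differed by -0.33 (shTRIB3-2 minus shTRIB3-1, adjusted p = 6.79e-06).

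TUBA4A, at chr2:219249710-219277902 on the minus strand, is an alpha isotype best known from platelets and from neurons, and its gene encodes no final tyrosine. Its FPKM was 4.52, 4.32 and 3.93 in shCtrl, 8.55, 9.26 and 8.74 with shTRIB3-1, and 7.32, 7.41 and 7.59 with shTRIB3-2. The 3 groups did not overlap. TUBA4A rose by 1.04 on the log2 scale (SE 0.0586, limma adjusted p = 9.84e-09) with the first and by 0.79 (SE 0.0586, adjusted p = 9.90e-08) with the second hairpin, equal to 2.08-fold and 1.75-fold differences of mean FPKM. Exons of STK16 and TUBA4B on the opposite strand cover 20% of its exon bases. TUBA4B was at 4.31 ± 0.541, 5.23 ± 0.239 and 8.51 ± 0.672 FPKM in the 3 groups, and STK16 at 7.70 ± 0.671, 7.97 ± 0.518 and 9.51 ± 0.143 (SD, n = 3 each). Whether counting used the strand is not given in the sources used here, and the methods name a strand-specific kit where the labels name another, so fragments of TUBA4A and of these partners cannot be told apart. The same holds for TUBA1B, where TUBA1B-AS1 covers 44% of the exon bases from the opposite strand, and for TUBA1C (22.7%, TUBA1A among others). It also holds for TUBB6 (21.2%, AFG3L2), TUBB (13.5%, MDC1 among others) and TUBA1A (10.8%, TUBA1C and TUBA1B-AS1). The share was 6.09% for TUBB4B, 4.18% for TUBB2B, 2.82% for TUBB2A and 0 for TUBB3. These shares are over all annotated exons of a gene, as is the same-strand share given for TUBB3 below. For TUBA1B that is 3574 bases, against a length of 1627 behind FPKM, so the share of the counted bases can differ. AFG3L2 was at 24.1 ± 0.343, 21.3 ± 0.585 and 23.0 ± 0.608 FPKM in the 3 groups, and MDC1 at 8.59 ± 0.539, 6.55 ± 0.221 and 6.11 ± 0.270 (SD, n = 3 each).

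**Figure D2:**
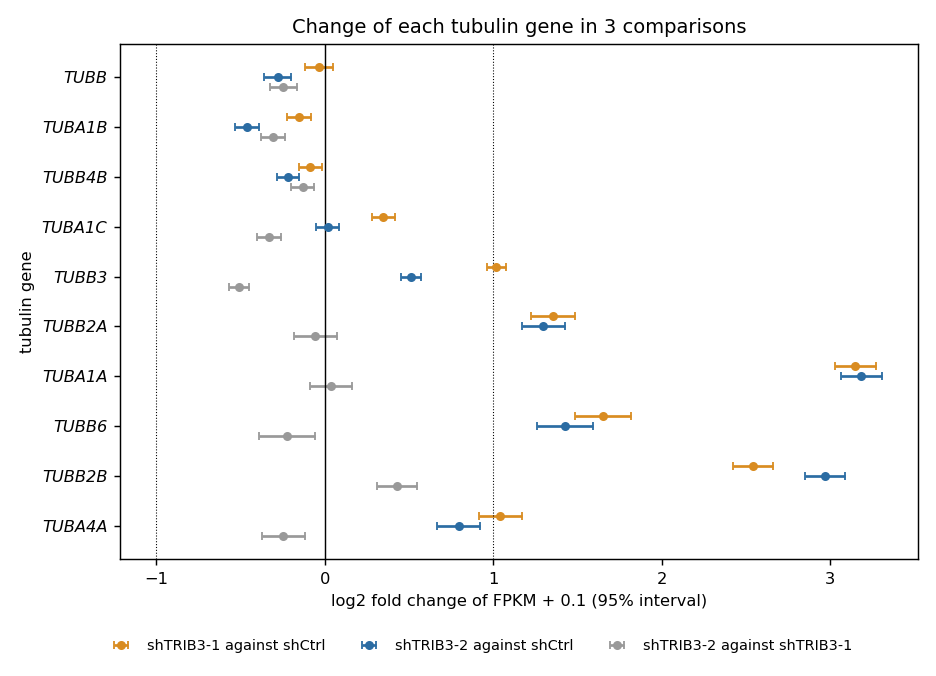
Log2 fold change of FPKM + 0.1 with its 95% interval (limma, 9 libraries) for each tubulin gene in 3 comparisons; dotted lines mark -1 and 1. TUBA1A (3.15 and 3.19) and TUBB2B (2.54 and 2.97) lie farthest right, and intervals of the hairpin difference cross 0 for TUBA1A and TUBB2A; TUBB with shTRIB3-1 (-0.03) and with shTRIB3-2 (-0.28) turned to 0.09 and 0.02 with quantile normalization.

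TUBB2B, a beta isotype of migrating and growing neurons, showed the largest change among the beta genes. Its FPKM was 5.51, 5.42 and 4.89 in shCtrl, 31.6, 29.9 and 32.0 with shTRIB3-1, and 43.9, 42.8 and 39.2 with shTRIB3-2. All 3 groups were apart, with the second hairpin highest. Group means were 5.27 ± 0.332, 31.2 ± 1.14 and 42.0 ± 2.45 FPKM, or 5.91-fold and 7.96-fold the control. The log2 fold changes were 2.54 (SE 0.0547, limma adjusted p = 4.18e-12) and 2.97 (adjusted p = 6.82e-13), and the hairpins differed by 0.43 (adjusted p = 6.26e-05). It was the single tubulin gene of the 10 that was higher with shTRIB3-2 than with shTRIB3-1 at an adjusted p under 0.05.

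TUBB2A, its close copy on chromosome 6 (chr6:3153497-3157544, with TUBB2B at chr6:3223324-3231730, both on the minus strand), rose by a smaller factor from a higher level. FPKM was 29.5, 31.6 and 33.9 in shCtrl, 80.4, 86.3 and 76.5 with shTRIB3-1, and 76.7, 83.2 and 74.0 with shTRIB3-2. The control libraries were below all others and the hairpin groups overlapped. Its rise on the log2 scale was 1.35 (SE 0.0591, limma adjusted p = 1.04e-09) with shTRIB3-1 and 1.30 (SE 0.0591, adjusted p = 1.21e-09) with shTRIB3-2, and the difference between hairpins was -0.06 with a 95% interval from -0.19 to 0.07. Because a stretch of 150 bases taken from TUBB2A was found unchanged in another gene in 48.7% of cases, and one from TUBB2B in 41.6%, the split of fragments between this pair is uncertain. The pair together summed to 37.0 ± 1.90 FPKM in shCtrl, 112 ± 3.83 with shTRIB3-1 and 120.0 ± 6.45 with shTRIB3-2 (SD, n = 3 each), 3.04-fold and 3.24-fold the control. The same share was 92.3% for TUBB3, nearly all of it with a readthrough gene described below, 8.01% for TUBA1A, 19.1% for TUBA1B, 7.22% for TUBA1C and 2.66% for TUBB, and 0 for TUBA4A, TUBB4B and TUBB6.

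TUBB6 is a beta isotype found in many non-neuronal tissues, and its gene is at chr18:12307669-12344320. FPKM was 8.07, 7.08 and 6.35 in shCtrl, 23.4, 22.5 and 21.9 with shTRIB3-1, and 20.9, 18.6 and 18.6 with shTRIB3-2. No groups overlapped, although the lowest shTRIB3-1 library was close to the highest shTRIB3-2 library. Means of 7.17 ± 0.860, 22.6 ± 0.772 and 19.4 ± 1.33 FPKM gave ratios of 3.16 and 2.70 to the control. The log2 fold change was 1.65 (SE 0.0753, limma adjusted p = 1.48e-09) with shTRIB3-1 and 1.43 (SE 0.0753, adjusted p = 4.51e-09) with shTRIB3-2. The hairpin difference of -0.22 (adjusted p = 0.0287) did not pass in 4 of the fits that left out 1 library, where adjusted p was at most 0.0973, nor with no filter (adjusted p = 0.0938) or as TPM (adjusted p = 0.0501).

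TUBB3, the beta isotype used as a neuronal marker and often raised in tumours, was already at 74.6, 72.7 and 73.9 FPKM in shCtrl. It was at 151, 149 and 149 FPKM with shTRIB3-1 and at 107, 106 and 103 with shTRIB3-2. The replicates were tight and the 3 groups lay well apart, the second hairpin in the middle. The log2 fold change was 1.02 (SE 0.0267, limma adjusted p = 1.63e-11) with shTRIB3-1 and 0.51 (SE 0.0267, adjusted p = 4.15e-09) with shTRIB3-2, and the difference between the hairpins, -0.51 (adjusted p = 5.54e-08), was the largest of the 10 genes. The gene, at chr16:89921392-89938761, shares 21.3% of its exon bases with a readthrough gene on the same strand (ENSG00000198211), and 92.3% of the 150-base stretches of its reference transcript also occur in another gene, mostly that one. How fragments were split between TUBB3 and the readthrough gene is not known, and the values of TUBB3 are uncertain to that extent.

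TUBB, the main beta isotype of dividing cells, had the highest FPKM of the 10 genes in every library: 650, 615 and 594 in shCtrl, 609.6, 604 and 600.4 with shTRIB3-1, and 503, 526 and 502 with shTRIB3-2. The first hairpin's libraries lay within the range of the controls, and those of the second lay below both. The log2 fold change was -0.03 with a 95% interval from -0.12 to 0.05 (limma adjusted p = 0.421) for shTRIB3-1, a sign that turned with median centring and quantile normalization. For shTRIB3-2 it was -0.28 (SE 0.0373, adjusted p = 2.20e-05), which turned to 0.02 (adjusted p = 0.702) with quantile normalization and kept its direction and call under the other scalings. TUBB lies at chr6:30717435-30725538.

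TUBB4B, a widely used beta isotype that is also known from cilia (chr9:137241287-137243707), was at 239.6, 245 and 236 FPKM in shCtrl, 225, 230.1 and 223 with shTRIB3-1, and 207, 212 and 200.3 with shTRIB3-2. The groups did not overlap, and they came in the order control, first hairpin, second hairpin. The log2 fold change was -0.22 (SE 0.0310, limma adjusted p = 3.80e-05) with shTRIB3-2. With shTRIB3-1 it was -0.09 (SE 0.0310, adjusted p = 0.0234), and this call was lost with median centring (adjusted p = 0.891) and without shCtrl replicate 2, shTRIB3-1 replicate 1 or shTRIB3-1 replicate 3 (adjusted p = 0.0953, 0.0576 and 0.0769).

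Between the hairpins, 1 tubulin gene was higher with shTRIB3-2, 7 were lower and 2 did not pass, where 45.8% of all tested genes passed (25.1% higher, 20.7% lower). The 10 log2 differences lay between -0.51 and 0.43, whereas 2.08% of tested genes passed with a difference beyond 1 (0.284% higher, 1.79% lower). The median difference was -0.24 over the 10 genes and 0.03 over all tested genes. TRIB3 was itself lower with the second hairpin, by a log2 difference of -0.71.

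To ask whether the whole supply of tubulin transcripts changed or only its make-up, FPKM values were summed within each class. The 4 alpha genes summed to 646 ± 6.74 FPKM in shCtrl, 745 ± 18.2 with shTRIB3-1 and 625 ± 12.6 with shTRIB3-2 (SD, n = 3 each). The 6 beta genes summed to 978 ± 29.2, 1115 ± 10.7 and 961 ± 25.8 FPKM. The alpha sums of the 3 groups did not overlap, and the beta sums of shCtrl and shTRIB3-2 did. Alpha over beta stayed at 0.661 ± 0.0129, 0.668 ± 0.0104 and 0.650 ± 0.00862, with overlapping groups. The sums are given as a description, and an exact permutation test of 3 against 3 libraries could not give a two-sided p below 0.1.

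The make-up changed by much more than the sums. TUBA1A supplied 1.99% ± 0.165 of the alpha sum in shCtrl, 15.3% ± 0.0730 with shTRIB3-1 and 18.8% ± 0.443 with shTRIB3-2, while TUBA1B went from 73.8% ± 0.796 to 57.5% ± 0.509 and 55.4% ± 0.708 (SD, n = 3 each). TUBA1C held 23.5%, 26.0% and 24.6%, and TUBA4A 0.659%, 1.19% and 1.19%. In the alpha class, therefore, the share that left TUBA1B was matched mostly by TUBA1A. In the beta class TUBB held 63.3% ± 1.04, 54.2% ± 0.327 and 53.1% ± 0.536, and TUBB4B 24.6% ± 0.713, 20.3% ± 0.209 and 21.5% ± 0.114. The neuronal isotype TUBB3 held 7.55%, 13.4% and 10.9% of the beta sum, TUBB2A 3.25%, 7.27% and 8.11%, TUBB2B 0.539%, 2.80% and 4.37%, and TUBB6 0.732%, 2.03% and 2.02%.

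**Figure D3:**
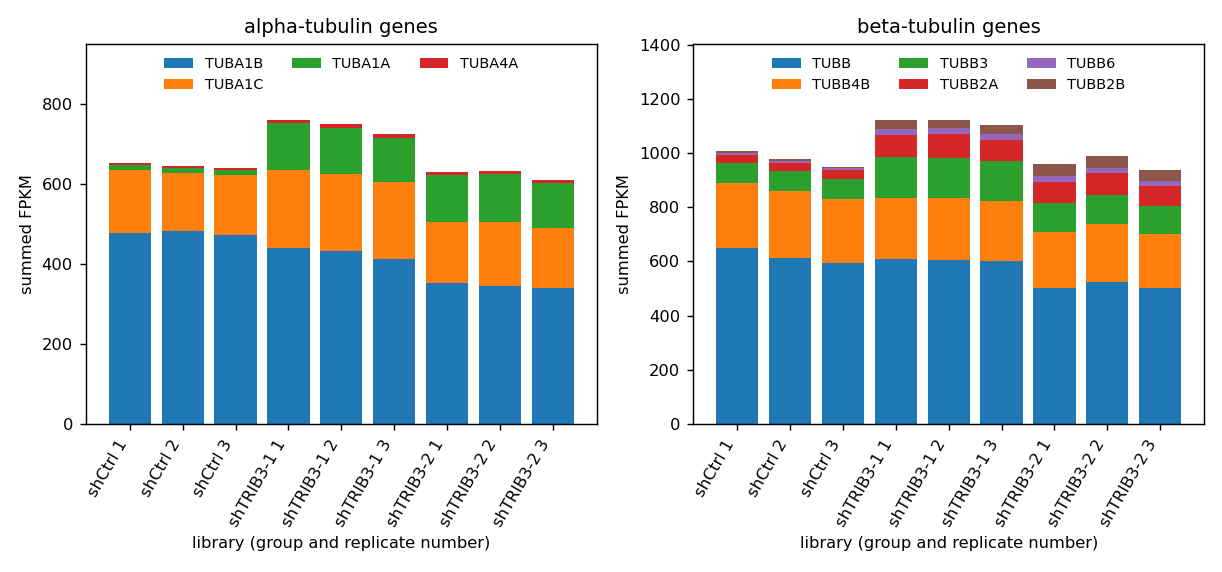
Summed FPKM of the alpha (left) and beta (right) tubulin genes in each library, with each gene's contribution stacked. Alpha sums run from 610.4 to 760.3 FPKM and beta sums from 937 to 1122, and the TUBA1A segment widens from about 2% to 15.3% and 18.8% of the alpha sum.

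Split by level, the 6 genes under 100 FPKM in shCtrl summed to 135 ± 1.62, 408 ± 7.89 and 369 ± 13.1 FPKM, 3.02-fold and 2.74-fold the control, and the 4 genes over 100 FPKM to 1489 ± 35.2, 1453 ± 20.9 and 1217 ± 24.8, or 0.976 and 0.817 times the control (SD, n = 3 each). This split was made after the values were seen and is a description. By level, the order in shCtrl was TUBB, TUBA1B, TUBB4B, TUBA1C, TUBB3, TUBB2A, TUBA1A, TUBB6, TUBB2B and TUBA4A, and neighbours in each group's own order did not overlap. TUBA1A moved from the 7th place to the 6th with shTRIB3-1 and to the 5th with shTRIB3-2, and TUBB2B passed TUBB6 with both hairpins.

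Genes marking dividing cells also differed between these groups. The 8 examined were MKI67, TOP2A, CCNB1, CDK1, PCNA, MCM2, AURKA and BIRC5. All 8 fell past a log2 fold change of -1 with both hairpins, as did 6.1% and 6.27% of all tested genes. Their median was -1.99 with the first and -3.20 with the second, against -0.06 and -0.03 over all tested genes. TOP2A, which untangles replicated DNA, changed by -2.36 and -3.35, CDK1, the kinase that starts mitosis, by -2.01 and -3.51, and the replication helicase subunit MCM2 by -2.16 and -3.38. The 8 genes summed to 555 to 564 FPKM in shCtrl, 161 to 162 with shTRIB3-1 and 103 to 104 with shTRIB3-2. Their part in the tubulin results was not tested.

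Beyond the 10 genes, 5 of 12 other tubulin genes on the list passed the filter on low values. TUBAL3, a divergent alpha-tubulin, was at 0.327, 0.154 and 0.249 FPKM in shCtrl, 5.74, 5.19 and 5.53 with shTRIB3-1, and 2.23, 2.74 and 2.88 with shTRIB3-2. It was near the detection limit in the controls, with 10 to 21 fragments per library, against 319 to 352 and 137 to 181 in the knockdown groups. It passed the filter only through the knockdown libraries, so its levels are a description. Delta-tubulin TUBD1, a centriole component, rose (0.23 and 0.27) and epsilon-tubulin TUBE1, needed for centriole triplets, fell (-0.52 and -0.93). TUBG1, the gamma-tubulin that nucleates microtubules, was at 0.01 (adjusted p = 0.844) and 0.14 (adjusted p = 0.0557), and its copy TUBG2 at 0.15 (adjusted p = 0.0651) and 0.53 (adjusted p = 1.86e-05). TUBA8, TUBA3D, TUBA3E, TUBB1, TUBB4A, TUBB8 and TUBB8B stayed under 1 FPKM in every library.

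Proteins that fold, modify or bind tubulin were examined next, and their counts stand against 74.4% of all tested genes passing with shTRIB3-1 (32.9% higher, 41.5% lower) and 75.9% with shTRIB3-2 (35.4% higher, 40.5% lower). Among the 7 folding cofactors, which assemble the alpha-beta dimer, 4 rose, 2 fell (TBCE and TBCD; 1 with median centring or quantile normalization) and 1 did not pass with shTRIB3-1, and 4 rose, 1 fell (TBCE) and 2 did not pass with shTRIB3-2. TBCB, which captures alpha-tubulin after folding, rose by 0.43 and 0.46 on the log2 scale, TBCA, the beta-tubulin carrier, rose by 0.38 and 0.28, and TBCE, an alpha-tubulin cofactor, changed by -0.38 and -0.25. Of the 15 chaperonin and prefoldin genes, 8 rose and 1 (VBP1) fell with shTRIB3-1, and 3 rose and 4 (CCT4, CCT7, CCT8 and PFDN1) fell with shTRIB3-2, which became 5 and 2 with median centring. The chaperonin subunits TCP1 (0.51 and 0.27) and CCT2 (0.34 and 0.17) and the prefoldin subunit PFDN2 (0.25 and 0.46) rose with both. The median over the 15 was 0.12 and -0.03, and the latter changed sign with median centring (0.03).

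Of the 4 genes of the pathway that ties tubulin mRNA to free tubulin, 3 fell and 1 rose with each hairpin. TTC5, which binds the nascent tubulin chain, was at 4.23 FPKM in shCtrl, 2.95 with shTRIB3-1 and 2.99 with shTRIB3-2 (log2 fold changes -0.51 and -0.49, limma adjusted p = 2.30e-05 and 3.07e-05). CNOT1, the scaffold of the CCR4-NOT deadenylase, changed by -0.49 with each hairpin, and CNOT11, a subunit of the same complex that the rule for named genes left out, also fell with both. SCAPER, which links TTC5 to that complex, was at 0.838 FPKM in shCtrl, 1.16 with shTRIB3-1 and 1.27 with shTRIB3-2. It passed the filter on low values only through the knockdown libraries, so its place as the gene that rose is a description.

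Among 11 tested tubulin-modifying enzymes, 6 rose and 4 (TTLL5, AGBL5, ATAT1 and HDAC6) fell with shTRIB3-1, and 4 (TTL, AGTPBP1, VASH2 and SIRT2) rose and 3 (TTLL5, AGBL5 and ATAT1) fell with shTRIB3-2. As TPM, 4 rose with shTRIB3-1. TTL, which puts the final tyrosine back on alpha-tubulin, rose by 0.60 and 0.96, AGTPBP1, which trims glutamates from the tail, rose by 0.46 and 0.47, and AGBL5, which removes the branching glutamate, changed by -0.53 and -0.56. Of the 11 genes of the gamma-tubulin ring complex, the template for new microtubules, 7 fell and 4 did not pass with shTRIB3-1, and 7 fell, 1 rose (TUBG2) and 3 did not pass with shTRIB3-2. With median centring or quantile normalization 1 rose with shTRIB3-1 and 2 with shTRIB3-2. MZT1, a small subunit that joins the complex to its anchors, changed by -1.10 and -1.33, TUBGCP3, a core subunit, by -0.55 and -0.63, and NEDD1, the targeting subunit, by -0.38 and -0.44.

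Of 24 tested microtubule-binding, plus-end and severing proteins, 11 rose and 6 fell with shTRIB3-1, and 12 rose and 9 fell with shTRIB3-2, and with median centring 14 rose with shTRIB3-1. MAP1B, a neuronal lattice-binding protein, went from 6.08 FPKM in shCtrl to 21.7 and 24.0 (1.82 and 1.96 on the log2 scale, limma adjusted p = 1.81e-11 and 6.50e-12). MAP7D1, which recruits kinesin, rose by 1.54 and 1.23. STMN3, a tubulin-sequestering stathmin, was at 1.47 FPKM in shCtrl, 0.468 with shTRIB3-1 and 0.547 with shTRIB3-2. It passed the filter on low values only through the shCtrl libraries, so its place among the genes that fell is a description. MAP2, another neuronal protein on the list, did not reach the filter, at 0.0940, 0.594 and 0.425 FPKM. Also below the filter were MAP1A (0.0560, 0.666 and 0.273), MAP6 (0.00247, 0.00641 and 0.00383) and, lower with both hairpins, MAP7 (0.157, 0.0795 and 0.0788).

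**Figure D4:**
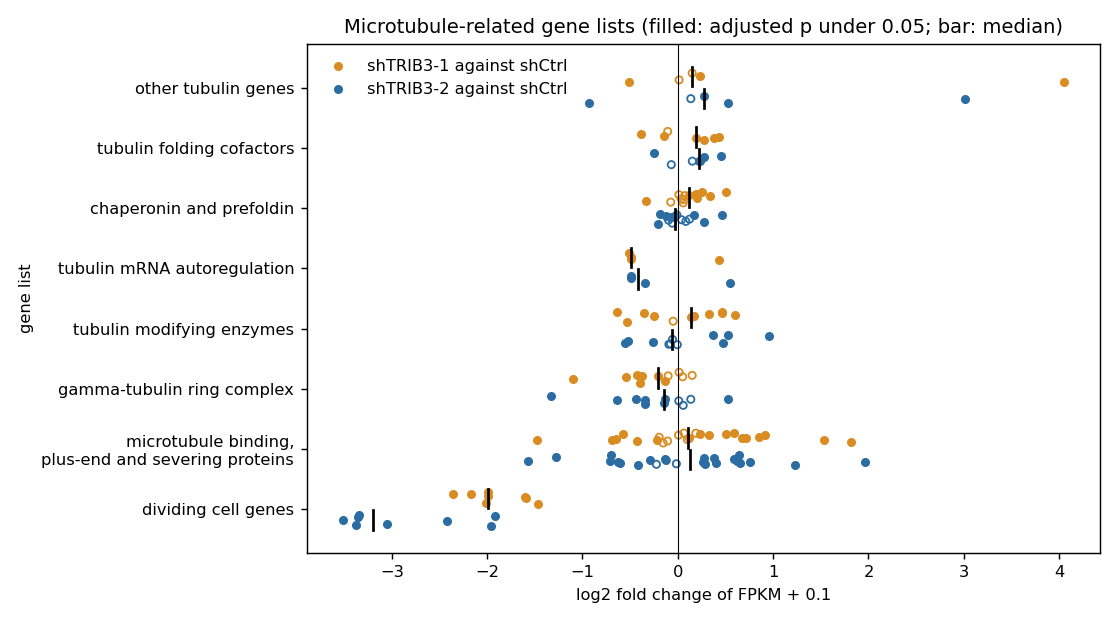
Log2 fold change of FPKM + 0.1 against shCtrl for each tested gene of 8 lists, shTRIB3-1 in orange and shTRIB3-2 in blue; filled points have an adjusted p under 0.05 and black bars are list medians. TUBAL3, which passed the filter only through the knockdown libraries, lies farthest right and the 8 dividing cell genes farthest left, with medians of -1.99 and -3.20; the chaperonin and prefoldin median with shTRIB3-2 (-0.03) turned to 0.03 with median centring.

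Promoters are shown for TUBA1A, which changed most, and for the close copies TUBB2A and TUBB2B, as RefSeq windows on GRCh38.p14 from 250 bases before to 50 after the start. Capitals mark matches, on either strand, to CCAAT (the NF-Y box), TATAAA (the TATA box), TGACGTCA (the cyclic AMP response element), TGAGTCA (the AP-1 site), TGATGNAA (the element read by ATF4) and a G-quadruplex motif, that is 4 runs of at least 3 G with 1 to 7 bases between runs. TATAAA in TUBB2A adjoins a run of that motif, and the Sp1 motif GGGCGG, which can lie within it, was searched but not marked.
TUBA1A, chr12:49189031-49189330, minus strand: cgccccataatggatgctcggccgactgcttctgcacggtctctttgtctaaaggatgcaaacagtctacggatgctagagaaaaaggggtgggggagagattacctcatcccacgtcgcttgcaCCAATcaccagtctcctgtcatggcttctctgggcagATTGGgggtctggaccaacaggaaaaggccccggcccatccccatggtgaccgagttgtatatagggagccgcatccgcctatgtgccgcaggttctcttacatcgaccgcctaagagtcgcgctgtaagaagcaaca
TUBB2A, chr6:3157495-3157794, minus strand: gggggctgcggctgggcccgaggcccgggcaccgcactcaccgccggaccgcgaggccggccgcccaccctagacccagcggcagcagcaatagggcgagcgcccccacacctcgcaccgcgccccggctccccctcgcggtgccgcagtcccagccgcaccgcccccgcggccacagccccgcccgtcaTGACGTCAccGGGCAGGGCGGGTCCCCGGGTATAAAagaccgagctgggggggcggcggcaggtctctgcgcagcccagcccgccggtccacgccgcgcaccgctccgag
TUBB2B, chr6:3227604-3227903, minus strand: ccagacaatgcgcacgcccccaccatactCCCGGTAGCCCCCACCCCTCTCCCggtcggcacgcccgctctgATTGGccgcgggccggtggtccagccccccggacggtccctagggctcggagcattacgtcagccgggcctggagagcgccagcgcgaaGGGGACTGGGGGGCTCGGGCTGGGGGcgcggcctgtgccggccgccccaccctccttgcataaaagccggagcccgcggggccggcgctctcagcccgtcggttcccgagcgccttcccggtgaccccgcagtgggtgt
GC content was 55.7% in TUBA1A, 79.0% in TUBB2A and 74.7% in TUBB2B. CCAAT was in TUBA1A and TUBB2B but not TUBB2A, and TATAAA and TGACGTCA were in TUBB2A alone of the 10 genes.

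All 10 genes had at least 1 window, 15 in total, and 35116 promoters were searched. The TUBA1C windows at chr12:49227676-49227975 and chr12:49227769-49228068 overlap and hold the same CCAAT match, which is counted in both. CCAAT lay in 9 of the 15 windows (7 genes) and in 34.6% of all promoters, GGGCGG in 9 of 15 (8 genes) and in 45%, and the G-quadruplex motif in 6 of 15 (TUBA1C, TUBB, TUBB2A, TUBB2B, TUBB3 and TUBB6) and in 25%. TATAAA lay in 11.5% of all promoters, TGACGTCA in 1.85% and TGAGTCA, present in TUBB3, in 4.95%. TGATGNAA was in no tubulin window and in 3.62% of all promoters. A match is a description of the letters in the window, not of binding.

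Among genes that are no tubulins, the transcripts nearest in pattern to TUBA1B over the 9 libraries were RPL6, MYADM and FZD4, with root mean square differences of centred log2 values of 0.0372, 0.0377 and 0.0380. Nearest to TUBB were BRMS1, ANXA11 and DNM2, at 0.0277, 0.0293 and 0.0319. These 2 genes were taken as the most abundant of each class, and likeness over 9 libraries in 3 groups rests on the group means.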

How the data were processed

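Libraries were grouped by their labels. The authors deposited FPKM, 1 column per library; STAR was the aligner and GRCh38 the genome in the study's methods, and the submitters' processing notes also name HTSeq and R 3.2.0. Annotation release and strand setting are not given in the sources used here. FPKM does not correct for composition. Genes with FPKM of 1 or more in 3 or more libraries (11265 of 24204) were tested with limma 3.58.1 in R 4.3.3 on log2(FPKM + 0.1), which understates changes of low genes, with 3 group means, a variance trend, two-sided p-values and Benjamini-Hochberg adjustment over all tested genes. Whole fragments were recovered from the FPKM steps: 172760 of 172769 values above 0 came within 0.02 of a whole number, and limma voom on them was an alternative. Fragments carry no molecular identifiers. Replicate pairs differed by more than sampling noise (chi-square per degree of freedom 3.13 to 7.54). The labels give no batch. Alternatives were another pseudocount, 2 other filters, 3 scalings, fits of 2 groups, a replicate block and leaving out each library. The tubulin genes and lists were chosen with earlier results of these data known. Named genes were the 10 tubulin genes, TRIB3, any tested gene with another tubulin symbol, up to 3 genes per list with the largest mean change among those passing in 1 direction with both hairpins, and the 3 nearest in pattern to the top alpha and beta gene. The overlapping genes STK16, AFG3L2 and MDC1 and the cell type markers were named with values outside this rule. Others named, among them the microtubule genes below the filter, were chosen after their values were seen.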

Additional observations from a re-analysis of the deposited data

Results flagged for a closer look

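The effect of the hairpins, each against the same 3 shCtrl libraries, differed for 8 of the 10 tubulin genes by the direct limma contrast (shTRIB3-2 minus shTRIB3-1, adjusted p under 0.05), where 45.8% of all tested genes passed. Lower with shTRIB3-2 were TUBB3 by -0.51, TUBA1C by -0.33, TUBA1B by -0.31, TUBA4A by -0.25, TUBB by -0.25, TUBB6 by -0.22 and TUBB4B by -0.13 on the log2 scale. TUBB2B was higher by 0.43. TRIB3 was also lower with shTRIB3-2 than with shTRIB3-1, and the part of this difference in the tubulin differences was not tested.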

How the results depend on the processing

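Over 30 pairs of gene and comparison under 18 settings, 518 of 540 values kept their direction and their side of the threshold, 14 lost the call, 1 gained it and 7 changed sign. For the 6 genes that rose with both hairpins, 216 of 216 values against shCtrl kept both. Signs changed for TUBB with shTRIB3-1 under median centring (0.0456), quantile normalization (0.0858) and without shCtrl replicate 1 (0.00089, the range over left-out libraries being -0.0641 to 0.00089), for TUBB with shTRIB3-2 under quantile normalization (0.0227), and for TUBA1C with shTRIB3-2 as TPM (-0.00635) and without shCtrl replicate 2 (-0.0063) or shTRIB3-2 replicate 2 (-0.0036, the range being -0.0063 to 0.0416). TUBB with shTRIB3-1 passed as TPM (-0.09, adjusted p = 0.0270). The genes lower with shTRIB3-1 numbered 0 under median centring (limma, and 0 at an unadjusted p under 0.05), 2 by voom on recovered fragments and 1 to 2 when 1 library was left out, and those lower in shTRIB3-2 than in shTRIB3-1 numbered 4 under quantile normalization, where TUBA1B, TUBB and TUBB4B lost the call. The genes past a log2 fold change of 1 with shTRIB3-1 numbered 5 without shCtrl replicate 3 and 6 without any other library, 5 with a pseudocount of 1 and 4 as TPM. TUBA4A was at 0.985 without shCtrl replicate 3, 0.907 with a pseudocount of 1 and 0.997 as TPM, and TUBB3 at 0.965 as TPM. As TPM, the ratio of summed FPKM with shTRIB3-1 to shCtrl was 1.11 for alpha and 1.10 for beta genes. The cause was not tested in any of these cases.

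Past the log2 fold change of 1, all genes numbered 607 higher and 687 lower with shTRIB3-1, against 376 and 404 with a pseudocount of 1, 338 and 407 with FPKM of at least 5, and 1085 higher with no filter. With shTRIB3-2, 683 higher and 706 lower became 411 higher with a pseudocount of 1, and 382 and 419 with FPKM of at least 5. Between hairpins, 32 higher and 202 lower became 4 and 80, 65 and 352 with no filter, and 7 and 119 with FPKM of at least 5, and 65 higher under quantile normalization.

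Same-numbered libraries of different groups had correlations of -0.0742 to 0.0933 in their deviations from the group means, with 0 of 9 pairs over 0.1, so the numbers were not taken as a pairing. A fit with the replicate number as a block changed the call of no tubulin gene and passed 8452 against 8379 genes with shTRIB3-1, 8601 against 8552 with shTRIB3-2 and 5274 against 5159 between hairpins.

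Depth limits no value of the 10 genes, whose lowest count was 337 fragments in a library. The limits are the close copies TUBB2A and TUBB2B, the readthrough gene that shares most of TUBB3 and genes that overlap on the opposite strand. The others are 3 libraries per group, the uncertain medium and, between genes, the lengths behind FPKM.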
